A study of Mus musculus with 8 samples.

Results

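Transcripts of 10 gut peptide hormone genes were followed in the proximal small intestine of mice without Pdx1 in the gut epithelium. The genes were Gip, Cck, Sct, Sst, Ghrl, Gcg, Nts, Gast, Pyy and Tac1. They were represented by every probe set whose only gene symbol in the array annotation was 1 of these names, which gave 10 of the 18193 genes with a probe set of their own, and 11 of the 45037 probe sets tested. Tac1 had 2 probe sets and each of the other 9 genes had 1. The knockout (KO) group was made up of 4 male mice aged 6 months with the genotype Pdx1flox/flox;VilCre. In these mice a villin-Cre transgene, under 12.4 kb of the mouse villin 1 promoter, deletes the floxed exon 2 of Pdx1, and with it the homeodomain, in the epithelium. The control (Ctrl) group was made up of 4 male mice of the same age with the genotype Pdx1flox/flox, so all 8 mice carried floxed Pdx1 and the controls carried no Cre. The loss of Pdx1 and the presence of Cre therefore cannot be told apart. Mice ate a diet with 4.5% fat, the labels describe them as brothers within a litter, and the tissue was the 5 cm of intestine next to the pylorus, with RNA of each mouse on its own array.

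Gut peptide hormones are made by enteroendocrine cells, which lie scattered among the absorptive cells of the epithelium and release their peptides when nutrients reach the gut. The hormone made changes along the gut: K cells with GIP, I cells with CCK and S cells with secretin are typical of the duodenum, while L cells with proglucagon peptides and PYY, and N cells with neurotensin, are more frequent further down. Gastrin and ghrelin are mainly hormones of the stomach, and somatostatin, substance P and neurotensin are also made by neurons. The deleted gene encodes a homeodomain protein that binds DNA in cells of the pancreas, antrum and duodenum, and in islets it is known as an activator of the insulin and somatostatin genes.

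Values are log2 expression as deposited, and a difference of 1 on this scale is a doubling. Pdx1 itself, on its brighter probe set, read between 5.58 and 6.18 in KO samples and between 8.16 and 8.98 in Ctrl samples (log2 change -2.59, adjusted p = 4.16e-04 in limma). The 9 gut epithelium markers together had mean levels of 12.34 to 12.55 in KO samples and 12.28 to 12.33 in Ctrl samples, so the epithelium of the label was present in every sample. The samples also held RNA of other organs. The mean level of 10 exocrine pancreas markers was 12.96 to 13.90 in KO samples and 12.05 to 14.37 in Ctrl samples, highest in Ctrl 4. For 6 islet markers it was 4.98 to 6.18 in KO samples and 4.74 to 7.45 in Ctrl samples, again highest in Ctrl 4, where the insulin gene Ins2 read 13.00. The means of 3 of these 6 were under 5, and of those Slc30a8 was highest in KO 3 (3.92). For 9 stomach markers the mean level was 8.41 to 8.72 in KO samples and 8.42 to 9.28 in Ctrl samples, highest in Ctrl 2. A test across all probe sets, with limma and Benjamini-Hochberg adjustment, called a probe set changed at an adjusted p under 0.05.

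Gip, the gene of the incretin GIP that K cells release and that raises insulin secretion after a meal, was the only hormone gene called changed. It read 9.04, 8.76, 8.37 and 8.93 in KO samples, against 11.37, 11.20, 11.30 and 11.77 in Ctrl samples. The highest KO value lay 2.16 below the lowest Ctrl value, while the range within KO was 0.68 and within Ctrl 0.58. The log2 change was -2.64 with a standard error of 0.16 (adjusted p = 2.01e-04 in limma), which is a 6.22-fold lower level with a 95% confidence interval from 4.87-fold to 7.94-fold. In KO 3, the lowest sample, its probe set still read above 82.5% of all probe sets on the array. Whole tissue was measured, so fewer K cells and less Gip RNA in each K cell cannot be told apart. With values under 5 set to 5, and in an ordinary linear model that does not pool the variance, the change was the same -2.64 and the adjusted p was 0.0508 and 0.0646, both above the threshold.

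**Figure D1:**
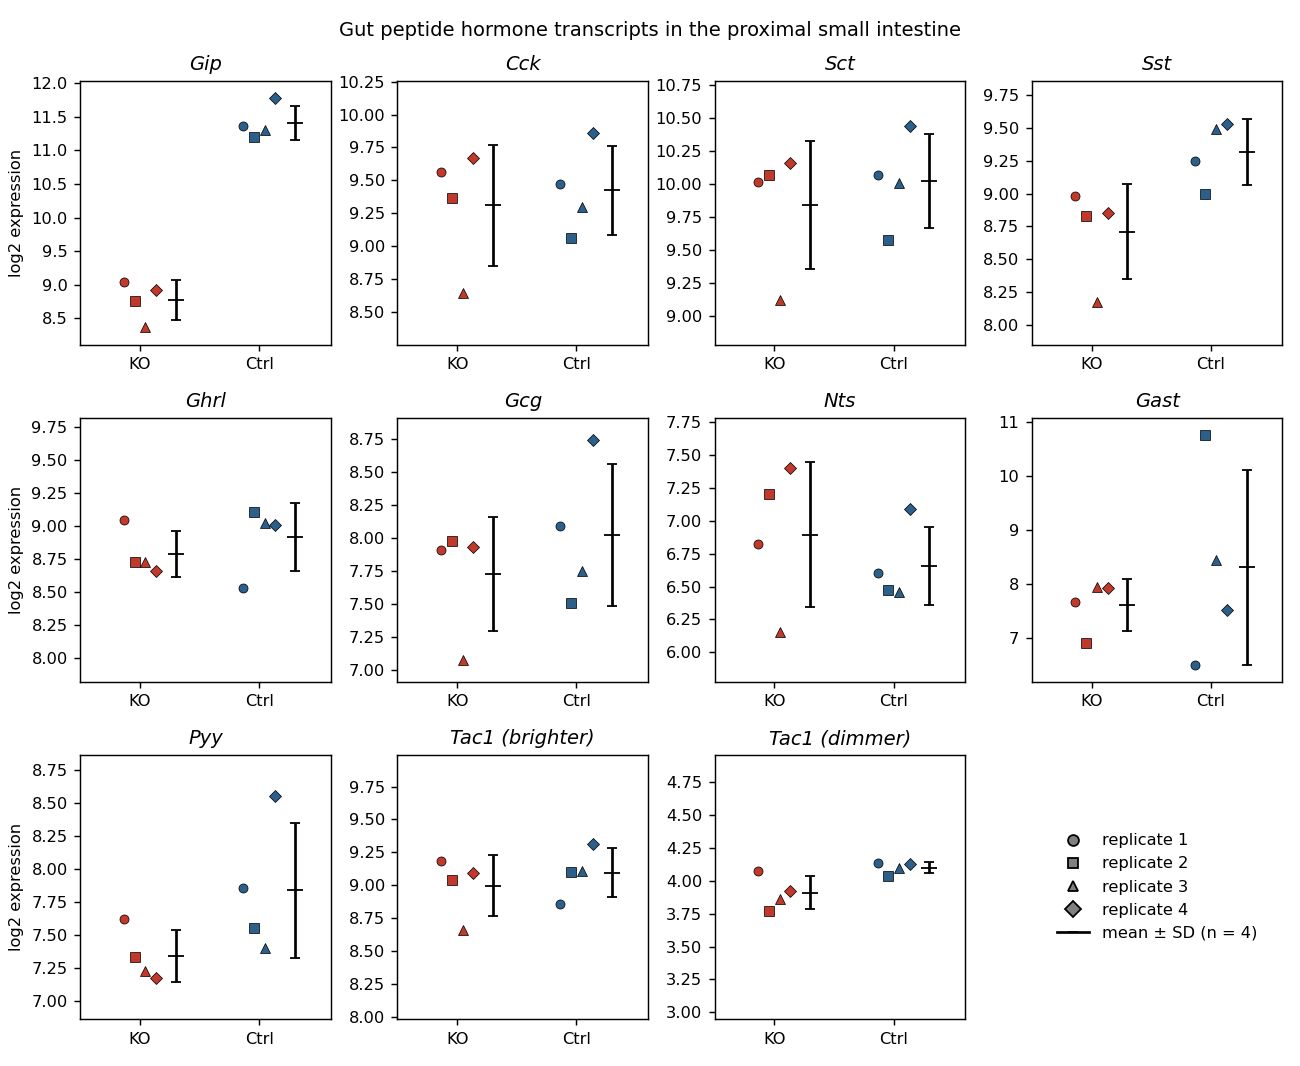
Log2 expression of each hormone probe set in KO samples (left, red) and Ctrl samples (right, blue), with symbols for replicates 1 to 4 and the mean ± SD beside them (n = 4 each). Gip lies between 8.37 and 9.04 in KO samples and between 11.20 and 11.77 in Ctrl samples, Sst is the other gene without overlap, and the scale of each panel is its own.

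The DNA before the Gip transcription start is shown because the deleted factor binds DNA through its homeodomain, whose core is TAAT. RefSeq promoter windows of build GRCm38.p6, from 250 bases before to 50 bases after a start, were available for all 10 genes, as 14 windows, and each was searched for TAAT, GATA and TATAA, the core of a TATA box, on both strands. GATA is the core bound by GATA factors, several of which act in the duodenum. The Gip window is shown with those of Cck, another classic duodenal hormone, and of Sst, a known Pdx1 target in islets. Capitals mark TAAT or its reverse complement ATTA.
Gip, chr11:96024295-96024594, plus strand: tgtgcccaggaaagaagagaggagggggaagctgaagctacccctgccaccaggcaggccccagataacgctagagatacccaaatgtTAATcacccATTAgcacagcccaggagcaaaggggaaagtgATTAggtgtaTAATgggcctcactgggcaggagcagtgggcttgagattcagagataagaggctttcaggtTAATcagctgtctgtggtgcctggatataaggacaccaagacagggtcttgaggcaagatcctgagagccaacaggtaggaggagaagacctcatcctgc
Cck, chr9:121495645-121495944, minus strand: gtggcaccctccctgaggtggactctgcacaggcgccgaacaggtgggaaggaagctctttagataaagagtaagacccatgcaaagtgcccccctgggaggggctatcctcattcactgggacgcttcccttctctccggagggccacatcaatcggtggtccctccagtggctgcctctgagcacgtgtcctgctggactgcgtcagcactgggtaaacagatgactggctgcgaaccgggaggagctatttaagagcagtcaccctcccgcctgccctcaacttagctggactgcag
Sst, chr16:23890795-23891094, minus strand: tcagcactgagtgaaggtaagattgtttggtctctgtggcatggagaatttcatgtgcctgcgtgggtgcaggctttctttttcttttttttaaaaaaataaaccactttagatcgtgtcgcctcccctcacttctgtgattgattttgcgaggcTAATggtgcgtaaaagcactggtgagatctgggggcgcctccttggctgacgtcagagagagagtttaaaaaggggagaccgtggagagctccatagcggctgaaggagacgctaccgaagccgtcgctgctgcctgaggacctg
The Gip window held 5 TAAT matches, at 162, 153, 121, 111 and 50 bases before the start, and 4 GATA matches, at 187, 175, 68 and 27 bases before it. The GATA match at 27 overlapped a TATAA match at 25, and the TAAT match at 111 overlapped a TATAA match at 113. Of the 32851 windows of the whole table, 58.0% held at least 1 TAAT match and 6.86% held 5 or more, while 57.9% held at least 1 GATA match and 4.99% held 4 or more, and 24.9% held a TATAA match. The Cck window had 0 TAAT and 2 GATA matches, and the Sst window had 1 TAAT match, 95 bases before its start, and 0 GATA matches. Among the other hormones Gcg and Tac1 had 2 TAAT matches each, Sct, Nts and Gast had 1 each, and the windows of Ghrl and Pyy had 0. These are matches of letters, and binding was not measured here.

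Of the 11 hormone probe sets 1 was called lower and 0 higher, where 0.0377% of all probe sets were called lower and 0.00444% higher, 0.0422% in all. The remaining 10 probe sets did not pass. The values of 10 of the 11, Gip among them, were below 0, as were 50% of all probe sets, and the median over the 11 was -0.19, with 4.75e-05 over all probe sets. At an unadjusted p under 0.05, 4 of 11 were lower (Gip, Sst, Pyy and the dimmer Tac1 probe set), with 3.62% of all probe sets lower at that threshold and 7.13% changed in either direction. With the stomach marker level as a covariate, added after seeing the data, 6 of 11 had an unadjusted p under 0.05 and a lower value, Sct (-0.48) and Gcg (-0.67) among them, and Cck had -0.40, but Gip alone was called. Without KO 3 and Ctrl 4, a choice made after seeing the data, 6 of 11 values were below 0 and 2 of 11, Gip and Sst, had an unadjusted p under 0.05 in that direction, while Nts, at 0.63, had one in the other. The shares of 3.62% and 50% belong to the fit as reported. Such shares over all probe sets were not counted for these other fits, so their hormone counts have no background beside them.

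**Figure D2:**
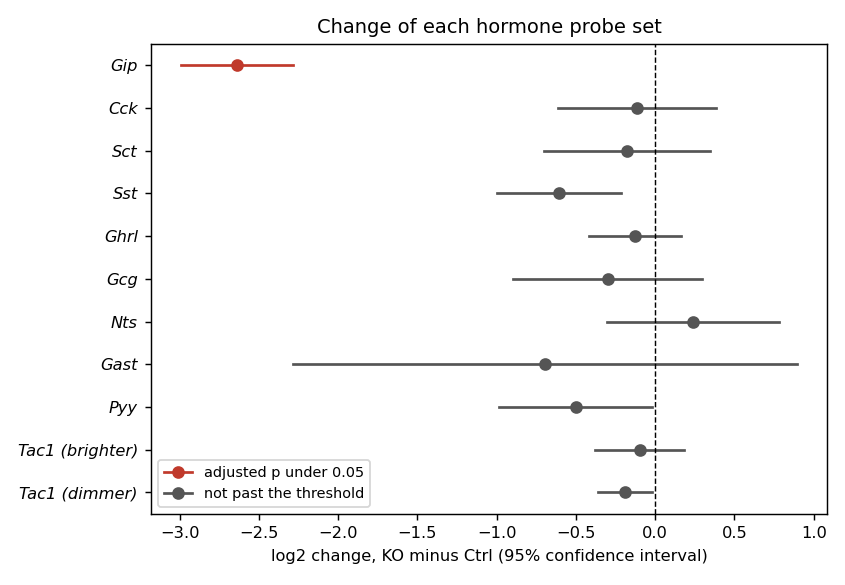
Log2 change (KO minus Ctrl, n = 4 each) of each hormone probe set with its 95% confidence interval from the limma fit, red where the adjusted p was under 0.05. Gip lies at -2.64 and the other 10 probe sets lie between -0.70 and 0.24, with the widest interval, -2.28 to 0.89, at Gast.

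No change was called for the other classic duodenal hormones. Cck encodes cholecystokinin, which I cells release to empty the gallbladder and stimulate the pancreas. It read 9.57, 9.37, 8.65 and 9.67 in KO samples, against 9.48, 9.07, 9.30 and 9.86 in Ctrl samples. KO 3 was the lowest of the 8 and Ctrl 4 the highest, and the remaining samples were intermixed. The change of -0.11 had an interval from -0.61 to 0.38 (adjusted p = 0.941 in limma), so a fall of more than 1.53-fold lay outside it. Sct encodes secretin, the S cell hormone that calls forth bicarbonate from the pancreas. It read 10.02, 10.07, 9.12 and 10.16 in KO samples, against 10.07, 9.58, 10.01 and 10.44 in Ctrl samples. As with Cck, KO 3 was lowest, Ctrl 4 highest and the groups overlapped. The change was -0.18, with an interval from -0.70 to 0.34 (adjusted p = 0.905 in limma). Without KO 3 the signs turned, to 0.11 for Cck and 0.060 for Sct, and without Ctrl 4 the value for Cck was 0.032.

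Sst encodes somatostatin, the peptide of D cells that restrains the release of other hormones. It read 8.98, 8.83, 8.18 and 8.85 in KO samples, against 9.24, 8.996, 9.49 and 9.53 in Ctrl samples. Every KO value was below every Ctrl value, but by only 0.014 between KO 1 and Ctrl 2. With Gip it made 2 of 11 hormone probe sets whose groups did not overlap and were lower, as did 2.33% of all probe sets, while 0 of 11 were higher without overlap, as were 2.1% of all. The change of -0.61 (1.52-fold lower) had an interval from -0.997 to -0.21 and was not called (adjusted p = 0.561 in limma). It was -0.43 without KO 3 and -0.36 without KO 3 and Ctrl 4. Sst is also made by islet D cells, and with the islet marker level as a covariate its value was -0.56. The part of islet tissue in the Sst values was not tested.

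Neither stomach hormone had a called change, and within the Ctrl samples Gast varied most of the 10 genes (SD 1.81). Ghrl encodes ghrelin, a peptide of the stomach and upper gut known for raising appetite. It read 9.04, 8.73, 8.73 and 8.66 in KO samples, against 8.53, 9.11, 9.02 and 9.01 in Ctrl samples. Ctrl 1 was the lowest and Ctrl 2 the highest of the 8. The change was -0.13, with an interval from -0.42 to 0.16 (adjusted p = 0.874 in limma), and without Ctrl 1 it was -0.26, with no call. Gast encodes gastrin, which G cells of the antrum and, in lower number, of the duodenum release to stimulate acid secretion. It read 7.67, 6.91, 7.94 and 7.93 in KO samples, against 6.52, 10.75, 8.45 and 7.53 in Ctrl samples. The Ctrl samples spanned 4.23 and enclosed every KO sample. Ctrl 2, the highest for Gast, was also the highest of the 8 samples for 6 of 9 stomach markers, among them the surface cell genes Gkn1 (13.82), Tff1 (13.76) and Muc5ac (9.13). It was not for Pgc, Atp4b and Atp4a, and for the dim Atp4a it was the lowest (4.80). Ctrl 1, the lowest for Gast, was the lowest of the 8 for 3 of 9, among them Gkn1 (12.43) and Tff1 (12.17). The change of Gast was -0.70, with an interval from -2.28 to 0.89 (adjusted p = 0.873 in limma), and the low end of this interval is a 4.87-fold fall. Without Ctrl 1 the value was -1.29, without Ctrl 2 it turned to 0.12, and with the stomach marker level as a covariate, a fit added after seeing the data, to 0.48.

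Hormones typical of the lower gut had no called change. Gcg encodes proglucagon, which L cells cut to GLP-1 and GLP-2 and islet alpha cells cut to glucagon. It read 7.91, 7.98, 7.08 and 7.93 in KO samples, against 8.10, 7.51, 7.75 and 8.74 in Ctrl samples. KO 3 was lowest and Ctrl 4 highest. The change was -0.30, with an interval from -0.89 to 0.30 (adjusted p = 0.853 in limma). It was -0.083 without KO 3, -0.47 without Ctrl 2, -0.059 without Ctrl 4 and -0.11 with the islet marker level as a covariate. Pyy encodes peptide YY, an L cell hormone that slows gut transit and is also present in islets. It read 7.62, 7.33, 7.23 and 7.17 in KO samples, against 7.86, 7.55, 7.40 and 8.55 in Ctrl samples. KO 1 lay above Ctrl 2 and Ctrl 3, so the groups overlapped, and Ctrl 4 was the highest of the 8. The change was -0.50, with an interval from -0.98 to -0.021 (adjusted p = 0.692 in limma). It was -0.26 without Ctrl 4, the sample with the highest islet markers, and -0.33 with the islet marker level as a covariate. The part of islet tissue in the Gcg and Pyy values was not tested. Nts encodes neurotensin, the N cell peptide, and was the only hormone probe set with a value above 0. It read 6.82, 7.20, 6.15 and 7.40 in KO samples, against 6.60, 6.47, 6.45 and 7.09 in Ctrl samples. KO 3 was the lowest of the 8, KO 2 and KO 4 lay above every Ctrl sample and KO 1 above all but Ctrl 4. The change was 0.24, with an interval from -0.30 to 0.78 (adjusted p = 0.872 in limma). With 1 sample left out it ran from 0.069 (without KO 4) to 0.49 (without KO 3), and it was 0.014 with the stomach marker level as a covariate, with no call in any of these.

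Tac1 encodes the precursor of substance P and neurokinin A, peptides of enteric neurons and of some serotonin-making enteroendocrine cells. Its brighter probe set read 9.19, 9.04, 8.66 and 9.10 in KO samples, against 8.86, 9.10, 9.11 and 9.31 in Ctrl samples. The groups overlapped and the change was -0.098, with an interval from -0.38 to 0.18 (adjusted p = 0.903 in limma). The dimmer probe set read between 3.77 and 4.07 in KO samples and between 4.04 and 4.13 in Ctrl samples, a change of -0.19 (adjusted p = 0.676 in limma). It was dim, reading above only 22.0% to 30.6% of the probe sets on an array. Neuron and glia markers, which could move with Tac1, had mean levels of 5.65 to 5.85 in KO samples and 5.77 to 5.91 in Ctrl samples, and their part in the Tac1 values was not tested.

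Within each group the same samples were high or low for many hormones. KO 3 was the lowest KO sample for 7 of 10 genes (Gip, Cck, Sct, Sst, Gcg, Nts and Tac1, with the brighter probe set of Tac1), at -0.74 to -0.33 from the group mean. Ctrl 4 was the highest Ctrl sample for 8 of 10 genes, the exceptions being Ghrl and Gast, at 0.22 to 0.72 from the group mean. Ctrl 2 was the lowest Ctrl sample for 5 of 10. KO 3 also had the highest exocrine pancreas (13.90), stomach (8.72) and gut epithelium (12.55) levels of the KO samples. Its smooth muscle level (9.80) was the highest as well, close to that of KO 1 (9.78). Ctrl 4 had the highest islet and exocrine pancreas levels of all and the lowest gut epithelium level (12.28). The mean level of the granule and prohormone processing list was lowest of all 8 samples in KO 3 (7.03) and highest in Ctrl 4 (7.62). The same held for the neuron and glia markers (5.65 and 5.91). It also held for the list of other gut, islet and enteric peptides (5.78 and 6.67). That list shares Iapp, Ppy and Ucn3 with the islet markers, so the 2 are not separate observations. Whether any of these set the hormone levels of KO 3 and Ctrl 4 was not tested. The shifts were smaller than the change of Gip, which was -2.38 without both samples.

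**Figure D3:**
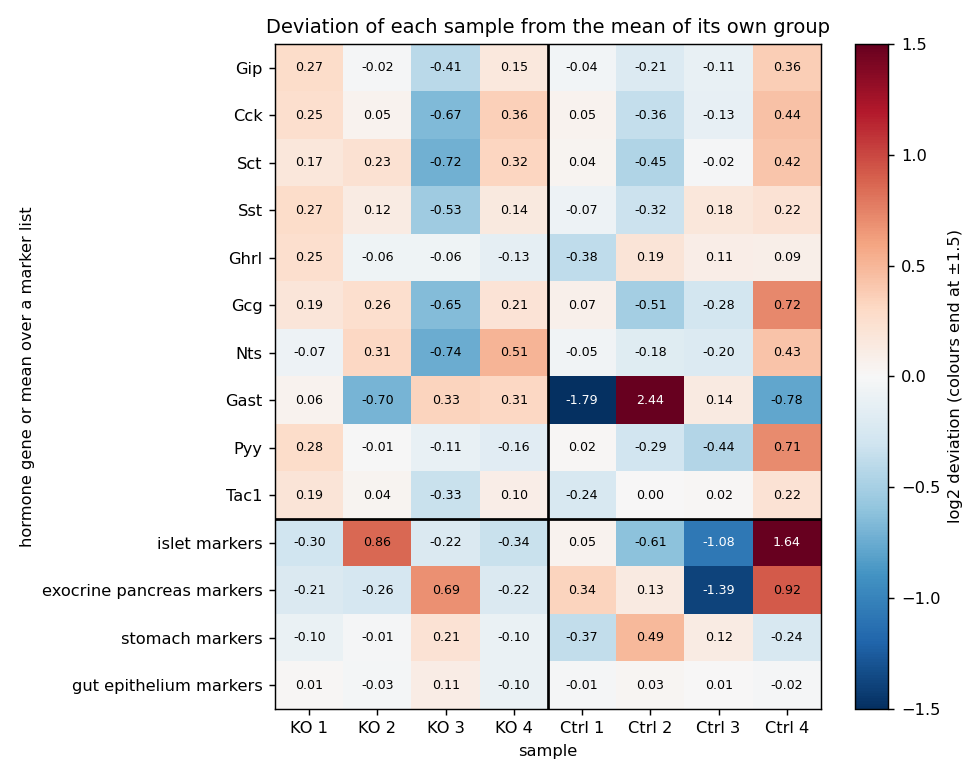
Deviation of each sample from the mean of its own group, in log2 units, for the 10 hormone genes and the mean levels of 4 marker lists, with KO samples on the left and Ctrl samples on the right. KO 3 lies at -0.74 to -0.33 in 7 hormones, Ctrl 4 at 0.22 to 0.72 in 8, and Gast ranges from -1.79 in Ctrl 1 to 2.44 in Ctrl 2.

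To ask whether Gip changed differently from the other hormones, and not only whether each passed a threshold, the level of each other hormone was subtracted from that of Gip within a sample. In 8 of the 9 pairs every KO difference lay below every Ctrl difference. The change of Gip minus that of Cck was -2.52, and minus that of Sct -2.46, Sst -2.03, Ghrl -2.51, Gcg -2.34, Nts -2.87, Pyy -2.13 and Tac1 -2.54. For each of these 8 the two-sided exact permutation p over the 8 samples was 0.0286, the smallest that 4 against 4 samples can give, unadjusted over the 9 comparisons, which all share the Gip values. For Gast the difference was -1.94 (exact permutation p = 0.114) and the groups overlapped through Ctrl 2. With 1 sample left out it ran from -1.36 (without Ctrl 1) to -2.82 (without Ctrl 2), and only without Ctrl 2 did the exact permutation p, then 0.0286, fall under 0.05.
The spread of these differences against that of the single genes varied by pair and group. The Gip minus Nts difference had an SD of 0.067 in Ctrl samples, where Gip alone had 0.25 and Nts alone 0.30, but 0.39 in KO samples, where Gip alone had 0.30 and Nts alone 0.55. The Gip minus Tac1 difference had an SD of 0.078 in KO samples, where Gip alone had 0.30 and Tac1 alone 0.23, but 0.20 in Ctrl samples, where Tac1 alone had 0.19. The Gip minus Ghrl difference had an SD of 0.37 in Ctrl samples, where Ghrl alone had 0.26.

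**Figure D4:**
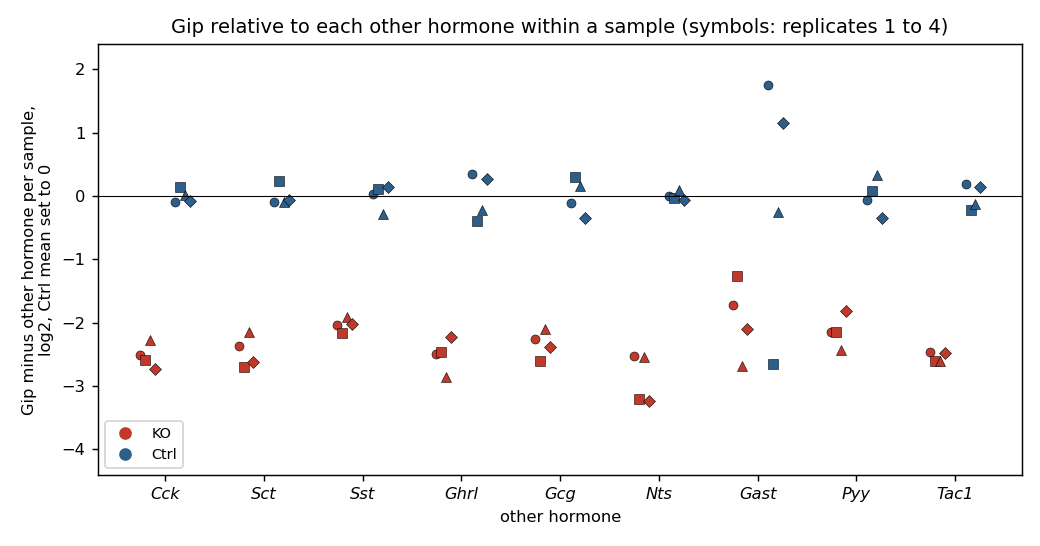
Gip minus each other hormone within a sample, in log2 units, with the mean of the Ctrl samples set to 0 for each hormone, for KO samples (red, left of each pair) and Ctrl samples (blue, right). In 8 of 9 hormones the KO samples lie between -3.23 and -1.82 and the Ctrl samples between -0.40 and 0.34, and in Gast the Ctrl samples spread from -2.65 to 1.75.

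The genes whose pattern was closest to that of Gip were found by the root mean square difference of log2 deviations from the Ctrl mean over the 8 samples, among 18192 other genes. This measure contains the KO and Ctrl difference, so it is a description. The closest was Pdx1 at 0.34, followed by the alkaline phosphatase Akp3 at 0.38, the iron exporter gene Slc40a1 at 0.64, the glucuronosyltransferase Ugt2b38 at 0.79 and Tnni1, the slow skeletal muscle troponin I, at 0.85. The median over all genes was 1.89. Pdx1 changed by -2.59 and Akp3 by -3.00, against -2.64 for Gip, and both passed the test, as did Slc40a1 at -1.78 and Ugt2b38 at -3.53. The dimmer of the 2 Pdx1 probe sets, not used for the measure, had -1.85. Tnni1 had -1.59 and did not pass (adjusted p = 0.452 in limma). Within the Ctrl samples Ctrl 4 was the highest for Pdx1, Slc40a1, Ugt2b38 and Tnni1, as for Gip, and Ctrl 1 was the highest for Akp3. Within the KO samples KO 3 was the lowest for Akp3 and Tnni1, as for Gip, but the highest for Pdx1 (6.18). The lowest KO sample was KO 4 for Pdx1 (5.58), KO 2 for Slc40a1 and KO 1 for Ugt2b38.

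**Figure D5:**
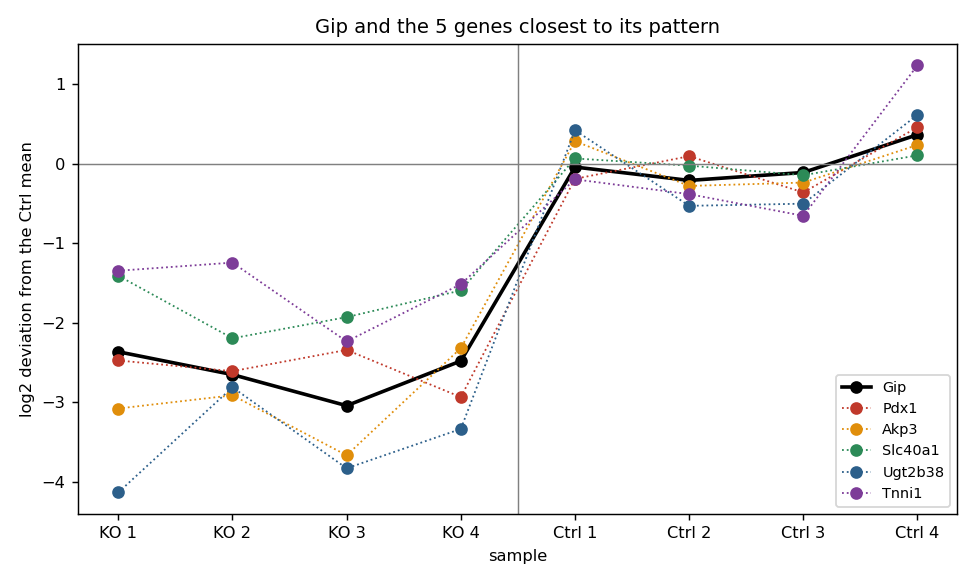
Log2 deviation from the Ctrl mean of Gip (black) and of the 5 genes with the closest pattern, in KO samples (left) and Ctrl samples (right). Lines join the values of a gene and imply no order of the samples. Gip and Pdx1 lie close together, with mean changes of -2.64 and -2.59.

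Lists of genes for other steps of enteroendocrine function are described by their values, since with 0.0422% of all probe sets called, a count of 0 in a list of this size is what the background gives. In the list of granule and prohormone processing proteins, 0 of 18 measured genes passed, with a median of -0.10 against 0.0046 over all genes. The smallest p was that of Ptprn2, a dense-core granule membrane protein, with -0.31 (adjusted p = 0.520 in limma). Slc18a2, the vesicular monoamine transporter, had -0.14, and Pcsk1n, an inhibitor of prohormone convertase, had -0.25. Ptprn2 read 8.05 to 8.16 in KO samples and 8.28 to 8.54 in Ctrl samples, without overlap. In the list of enteroendocrine lineage transcription factors, 0 of 17 passed and the median was 0.067. Rfx3 had 0.20, Gata6 0.16 and Nkx2-2, a factor of endocrine progenitors, 0.19. Slc18a2, Rfx3 and Nkx2-2 had mean readings of 3.32, 4.64 and 4.91, below the array medians of 5.23 to 5.27.

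For the sensing of nutrients, 0 of 7 measured genes passed, with a median of 0.0094. Slc5a1, the sodium glucose cotransporter through which sugar makes K cells release GIP, had 0.22 (adjusted p = 0.735 in limma). The fatty acid receptors Ffar2 and Ffar4 had -0.22 and -0.10. Of the 21 measured receptors for the hormones 0 passed and the median was -0.073. Their values ran from -1.20 to 0.24, and the means of 13 of them were under 5, below the array medians. The secretin receptor Sctr had -0.21, the somatostatin receptor Sstr5 -0.27 and the neuropeptide Y receptor Npy1r 0.24. Among 7 genes that modify or inactivate the peptides 0 passed and the median was 0.050. Dpp4, the brush border peptidase that inactivates GIP and GLP-1, had 0.33 (adjusted p = 0.676 in limma). The peptidase Mme had 0.28 and Qpct, which forms the pyroglutamate end of some peptides, had 0.14. Of 14 other peptides of gut, islet and enteric neurons 0 passed and the median was -0.15. Penk, the enkephalin precursor, had -0.27, Nucb2, the nesfatin precursor, -0.55, and the neuropeptide galanin gene Gal -0.54.

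The marker lists of the tissue and its neighbours also held 0 called genes, which against 0.0422% of all probe sets says nothing about them. Of the 6 islet markers 5 had values below 0 (median -0.46), and Iapp, the amylin gene, had -1.18 with 10.44 in Ctrl 4 and 5.49 to 7.76 in the other samples. The 10 exocrine markers were all below 0 (median -0.19), with the colipase gene Clps at -0.33, Sycn at -0.56 and the chymotrypsin-like gene Ctrl at -0.52. The 9 stomach markers were all below 0 (median -0.25), and Sult1c2, a sulfotransferase, had -1.03 (adjusted p = 0.0862 in limma). The parietal cell gene Atp4a read 4.80 to 5.05 in all 8 samples. Of the 10 neuron and glia markers 8 were below 0 (median -0.067), with Chat at -0.26 and Gfap at -0.21. The 8 smooth muscle markers were all above 0 (median 0.21), among them Actg2 at 0.52. The 9 epithelium markers were all above 0 as well (median 0.10), among them Krt20 at 0.22, Ezr at 0.29 and Vil1 at 0.19. The relation of these marker levels to the Gip value was not tested. The Gip change was -2.63 with the exocrine pancreas level as a covariate, -2.56 with the islet level and -2.81 with the stomach level. The stomach level includes Sult1c2, whose KO values all lay below the Ctrl values. In every fit that used it, this covariate therefore held part of the KO and Ctrl difference. The islet and exocrine pancreas levels overlapped between the groups. With 5 of 6 and 10 of 10 of their markers below 0, these covariates could hold part of it too.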

How the data were processed

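RNA of 8 whole-tissue samples was measured on Affymetrix arrays, 1 per mouse, with biotin-labelled cRNA, per the labels' protocols. The authors deposited log2 expression values by probe set and array, a scale read from the values. The submitters' processing notes list Partek 6.4 without its role. How background was corrected and arrays were normalized is not stated in the labels. Arrays have no read depth: their number limits the precision.

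Of 45101 probe sets, 64 array controls were left out. Gene names came from the platform annotation, and all 11 hormone probe sets matched RefSeq by Entrez identifier. KO minus Ctrl was fitted for the other 45037 in R 4.3.3 by limma 3.58.1 (lmFit, then eBayes), with no filter, covariate or block. P-values were adjusted over all of them by the Benjamini-Hochberg method, and 95% intervals came from the same fit. A gene with several probe sets is represented in lists by that with the highest mean. Marker levels are means of log2 values over a list. Single differences used a two-sided exact permutation test. The fit was tested on simulated data with 50 planted changes of each size. It called 56% of the changes of 0.5 and 100% of those of 1, with 6 false calls. Simulated probe sets varied independently of each other, which those on real arrays need not do. Figures used matplotlib 3.10.9.

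The members and gene lists were chosen with earlier results of these data known. Named genes were all hormones, Pdx1 and Vil1, the 3 members of each list with the smallest p, the 5 genes closest to Gip, and markers beside a result. Alternatives were another scaling, filter, floor, variance model, array weights, a replicate block, marker covariates, another threshold, the mean of probe sets, and samples left out. The numbers of the replicates did not pair the samples.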

Additional observations from a re-analysis of the deposited data

Results flagged for a closer look

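A sample far from the others of its group was found in 10 of 106 groups of 4 samples, over 53 named probe sets, where chance gives about 1 in 20. Of the 22 groups of hormone values 2 were among them, both in KO 3: Sct read 9.12 there and Gcg read 7.08, each the lowest KO value. KO 3 was also the highest KO sample for the peptide precursor Nucb2 (8.03), for Clps (13.49) and for the chymotrypsin-like gene Ctrl (13.60). KO 2 was the highest KO sample for Iapp (7.76), and KO 1 the lowest for Slc18a2 (3.15). Among the Ctrl samples Ctrl 4 was highest for the receptor Npy1r (3.96) and lowest for the keratin gene Krt20 (13.34), and Ctrl 3 was lowest for Chat (5.50). Slc18a2 and Npy1r, with means of 3.32 and 3.95, read below the array medians.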

How the results depend on the processing

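The fall of Gip kept its direction under every alternative run, between -2.81 and -2.38, and its call in all but the floor at 5 (-2.64, adjusted p = 0.0508 in limma) and the ordinary linear model (-2.64, adjusted p = 0.0646), where the count of called hormone probe sets was 0 in place of 1. These settings called 4 and 2 of all 45037 probe sets, against 19 in the fit as reported. With 1 sample left out the change of Gip lay between -2.73 and -2.50 (adjusted p between 1.26e-04 and 0.00246 in limma), and the count of called hormone probe sets was 1 each time. No other hormone was called under any alternative. Signs turned for uncalled values: with 1 sample left out Cck ranged from -0.23 to 0.11, Sct from -0.33 to 0.060, Gcg from -0.47 to -0.059 without a change of sign, Gast from -1.29 to 0.12 and the brighter Tac1 probe set from -0.18 to 0.013. Without KO 3 and Ctrl 4 together Cck had 0.25, Sct 0.20, Gcg 0.16 and the brighter Tac1 probe set 0.086, and with the stomach level as a covariate Gast had 0.48. Ghrl ranged from -0.26 to -0.064 and Nts from 0.069 to 0.49 with 1 sample left out. The causes were not tested. With 1 sample left out, the difference between Gip and each of the 8 hormones other than Gast kept its sign and an exact permutation p of 0.0286. In these pairs the groups did not overlap with all samples in, so the sign could not turn. The p of 0.0286 is also the smallest possible with 1 sample left out, so these fits add no further support. For Gast it ran from -2.82 to -1.36, with an exact permutation p of 0.0286 (without Ctrl 2) to 0.257. With the replicate number as a block Gip had -2.64 (adjusted p = 3.24e-04 in limma), and 24 probe sets in place of 19 were called. Deviations of same-numbered samples correlated between -0.18 and 0.076 across probe sets, and no sample correlated best with its own number. The best partners were KO 3 with Ctrl 2 (0.60), KO 4 with Ctrl 1 (0.39), KO 1 with Ctrl 3 (0.32) and KO 2 with Ctrl 4 (0.20). The labels do not say which mice were brothers, and no pairing other than by number was fitted. Probe sets with a reading near the array median carry an unknown share of background.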
